A study of Homo sapiens with 4 samples.

Results

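Interferon-stimulated genes were examined in U937 cells after ultrasound, the ultrasound contrast agent Sonazoid, or both. U937 is a human lymphoma line with features of young monocytes, and Sonazoid consists of gas-filled microbubbles. The set holds 10 genes, IFIT1, IFIT2, IFIT3 and IFIT5 of the IFIT family and ISG15, MX1, OAS1, USP18, IFIH1 and CXCL10, out of 19775 genes with a symbol of their own on the Affymetrix Human Genome U133 Plus 2.0 array. All 16 probe sets annotated to these symbols were used. The genes were chosen with earlier results of these data known, their values in the combination against control among them. All of their values are therefore given as a description. There were 4 arrays, 1 for each group. The combination cells received 0.05% Sonazoid and 1 min of ultrasound at 0.3 W/cm2, the ultrasound only cells the same ultrasound, the Sonazoid only cells 0.05% Sonazoid, and the control cells neither. The treated cells stood for 3 h before RNA was taken, and the sources used here do not give the length of the control incubation. All groups are 1 cell line, and no group has a replicate, so no test was made and no difference has a replicate check.

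Interferons are secreted proteins that bind surface receptors and, through JAK kinases and STAT proteins, switch on a large set of antiviral genes. The complex that does so for type I interferons binds a DNA element called the ISRE. Part of these genes, among them IFIT1, IFIT2, IFIT3, ISG15 and CXCL10, can also be switched on directly by the transcription factor IRF3 when a cell senses foreign or misplaced nucleic acid, before any interferon is made. IFIT proteins bind viral RNA and hinder its translation, and in monocytes the whole group responds strongly to interferon and to toll-like receptor ligands.

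The promoter sequences are shown for the members whose signals were higher on both ultrasound arrays and that have an entry in the promoter table, namely IFIT1, IFIT3, CXCL10 and ISG15, the first 3 by larger differences than ISG15. Each line gives the 250 bases before an annotated transcript start, 5′ to 3′ on the strand of the gene, from RefSeq on GRCh38.p14. Capitals mark each match to the ISRE core, written GAAANNGAAA and searched on both strands, so that a match on the opposite strand appears as its reverse complement.
IFIT1 (chr10:89392373-89392622, plus strand): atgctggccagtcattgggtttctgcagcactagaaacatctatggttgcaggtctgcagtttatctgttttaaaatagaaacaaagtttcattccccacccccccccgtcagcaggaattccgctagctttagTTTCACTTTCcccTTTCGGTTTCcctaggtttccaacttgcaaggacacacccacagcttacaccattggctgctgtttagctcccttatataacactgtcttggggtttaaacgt
IFIT3, first start (chr10:89327747-89327996, plus strand): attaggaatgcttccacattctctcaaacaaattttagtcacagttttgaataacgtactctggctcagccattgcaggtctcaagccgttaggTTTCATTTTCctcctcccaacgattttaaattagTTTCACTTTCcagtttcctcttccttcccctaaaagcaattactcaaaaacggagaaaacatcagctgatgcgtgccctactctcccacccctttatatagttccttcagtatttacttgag
IFIT3, other start (chr10:89332279-89332528, plus strand): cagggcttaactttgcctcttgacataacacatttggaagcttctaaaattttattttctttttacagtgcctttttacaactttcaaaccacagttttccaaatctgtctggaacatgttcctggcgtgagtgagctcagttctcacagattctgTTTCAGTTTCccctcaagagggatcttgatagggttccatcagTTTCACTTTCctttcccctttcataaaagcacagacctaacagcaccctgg
CXCL10 (chr4:76023498-76023747, minus strand): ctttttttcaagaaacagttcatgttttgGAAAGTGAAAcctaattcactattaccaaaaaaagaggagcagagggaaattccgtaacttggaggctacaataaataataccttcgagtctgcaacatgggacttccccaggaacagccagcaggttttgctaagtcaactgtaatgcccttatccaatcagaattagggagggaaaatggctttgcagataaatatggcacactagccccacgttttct
ISG15 (chr1:1013247-1013496, plus strand): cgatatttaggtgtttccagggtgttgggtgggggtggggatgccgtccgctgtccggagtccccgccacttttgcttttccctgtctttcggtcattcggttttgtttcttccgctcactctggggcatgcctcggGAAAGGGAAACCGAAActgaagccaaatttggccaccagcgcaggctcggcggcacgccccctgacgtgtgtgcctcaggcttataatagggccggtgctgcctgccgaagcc

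IFIT1 and each IFIT3 start held 2 ISRE core matches, all on the opposite strand. In IFIT1 they lay at -116 to -107 and -103 to -94 from the transcript start. At the IFIT3 starts they lay at -156 to -147 and -122 to -113, and at -94 to -85 and -51 to -42. The 2 matches of ISG15, at -113 to -104 and -107 to -98, overlapped each other, and CXCL10 had 1, at -221 to -212. The table held 8 of the 10 members, with 11 windows of 300 bases, from 250 before to 50 after a start. In these, 7 of the 8 members and 9 of the 11 windows had at least 1 ISRE core match. The members were picked as interferon-stimulated genes, so this share is a description and not support. Over all 35116 windows of that length the share with a match was 3.57%, and the share with at least 2 was 0.259%.

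Matches also occurred in members with low signals or with probe sets that disagree. IFIT5 had 3 matches, IFIH1 3, 2 of them overlapping, and MX1 1 at each of 2 of its 3 starts, while the OAS1 window had none. A GAS element, the site for STAT dimers downstream of interferon gamma, was searched as TTCNNNGAA and occurred in OAS1 and in 1 MX1 window, where it overlapped the ISRE core match, against 7.66% of all windows. The NF-kB consensus occurred in CXCL10 (at -177 to -168 and -122 to -113), IFIH1 and 2 MX1 windows, against 11.3% of all windows. A match is only a match of letters, and its absence says only that these letters are not in the window. The ISRE core was searched with a gap of 2 bases alone. The OAS1 window holds 2 GAAA with 1 base between them, which this search does not count. The MX1 window without a match holds such pairs too, on the opposite strand.

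**Figure D1:**
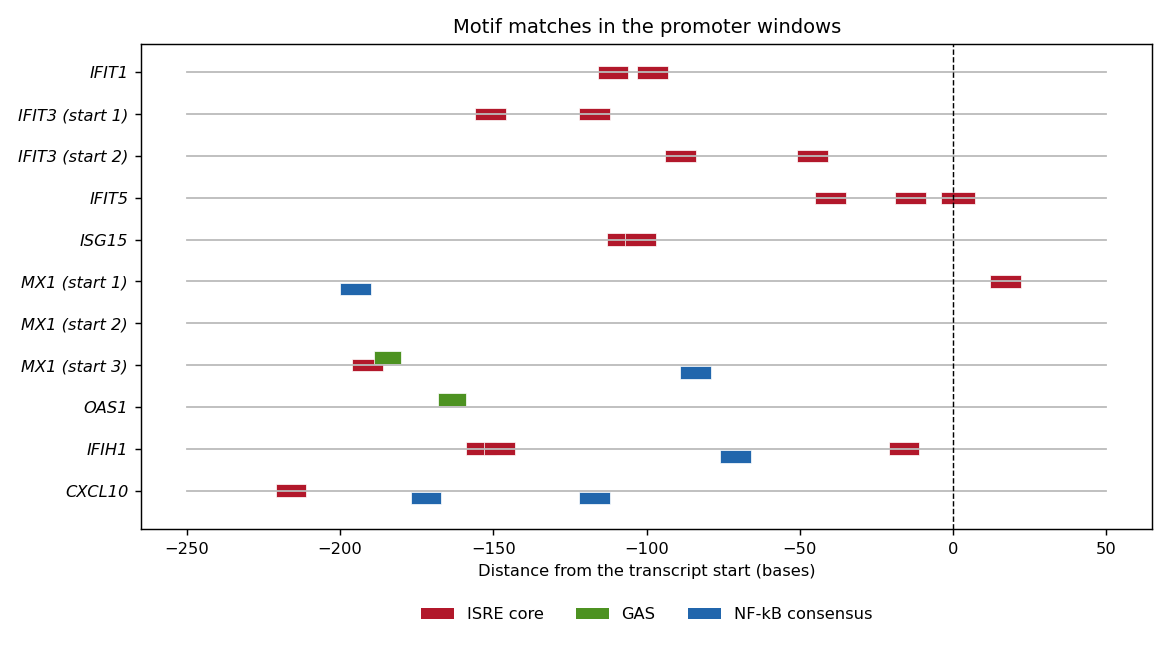
Matches to 3 motifs in the 11 promoter windows of 8 members. The horizontal axis is the distance from the transcript start in bases, each grey line is 1 window, and bars are matches to the ISRE core (red), GAS (green) and NF-kB consensus (blue). IFIT1 and both IFIT3 starts have 2 ISRE core matches each, and OAS1 has none with the 2-base gap searched.

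The arrays had deposited median signals of 22.6 to 26.4 and were scaled to a common trimmed mean. Signals below are scaled intensities, and a floor was set at 23.8, their median over all arrays, before log2 was taken. Where 1 of the 2 signals lay under the floor the difference is a bound, written "at least". The 3′ to 5′ signal ratios, a sign of RNA integrity, were 1.16 to 1.2 for ACTB and 0.946 to 1.01 for GAPDH. Of 13 myeloid markers 12 or 13 lay above the floor on each array, with summed signals of 35095 to 43194; MPO was above it with Sonazoid only. Markers of plasmacytoid dendritic cells, a main source of type I interferon in blood, were above the floor for 1 or 2 of 5 genes, with CLEC4C, LILRA4 and IL3RA below it on all 4 arrays and summed signals of 320 to 415. The summed signals were 2893 to 3284 for 7 T and NK markers (CD3D and GNLY below the floor on all arrays, 1 to 4 above it), 151 to 207 for 5 B cell markers (2 or 3 above) and 190 to 226 for 6 fibroblast markers (3 above). NKG7 alone gave 2771 to 3197 of the T and NK sums, and TCF4 alone 296 to 361 of the plasmacytoid dendritic sums. In bulk RNA, fewer cells making a transcript and less RNA per cell cannot be told apart.

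IFIT1 and IFIT2 stood apart from the other members on both arrays with ultrasound. IFIT1, which binds RNA lacking the host's cap methylation, had a signal of 152 in the combination, 155 with ultrasound only, 43.0 with Sonazoid only and 30.1 in control. The ultrasound arrays were alike and well above the others. IFIT1 was 5.14-fold higher with ultrasound only than in control (log2 2.36) and 3.53-fold higher in the combination than with Sonazoid only (log2 1.82), 2 comparisons that share no array. Among all measured genes, 8 of 13043 had a larger difference with ultrasound only against control, and 23 of 12931 in the combination against Sonazoid only. Both comparisons use an array on which the members were chosen, so these ranks are a description and not support.

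IFIT2, an RNA-binding relative that promotes cell death in some settings, had a signal of 132 in the combination, 122 with ultrasound only, 14 with Sonazoid only and 21.5 in control. Both arrays without ultrasound were under the floor. IFIT2 was thus at least 5.14-fold higher with ultrasound only than in control and at least 5.55-fold higher in the combination than with Sonazoid only. Its other probe set read 87.3 in the combination, 79.8 with ultrasound only, 18.4 with Sonazoid only and 2.42 in control, which gave at least 3.35-fold and at least 3.66-fold. Both probe sets therefore split the arrays the same way.

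IFIT3, the partner that stabilises IFIT1 on RNA, had a signal of 254 in the combination, 227 with ultrasound only, 153 with Sonazoid only and 136 in control. Its other probe set gave 204 in the combination, 172 with ultrasound only, 107 with Sonazoid only and 110 in control. The ultrasound arrays were the higher ones in both probe sets, but by less than 2-fold. The brighter probe set was 1.67-fold higher with ultrasound only than in control and 1.66-fold higher in the combination than with Sonazoid only, and the other 1.56-fold and 1.91-fold. IFIT5, which binds RNA with a triphosphate end, was barely measured: its probe sets were above the floor on 1 array at most, at 25.5 with ultrasound only, against 4.16 in the combination, 16.9 with Sonazoid only and 19.3 in control. No difference of IFIT5 can be drawn from signals that low.

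**Figure D2:**
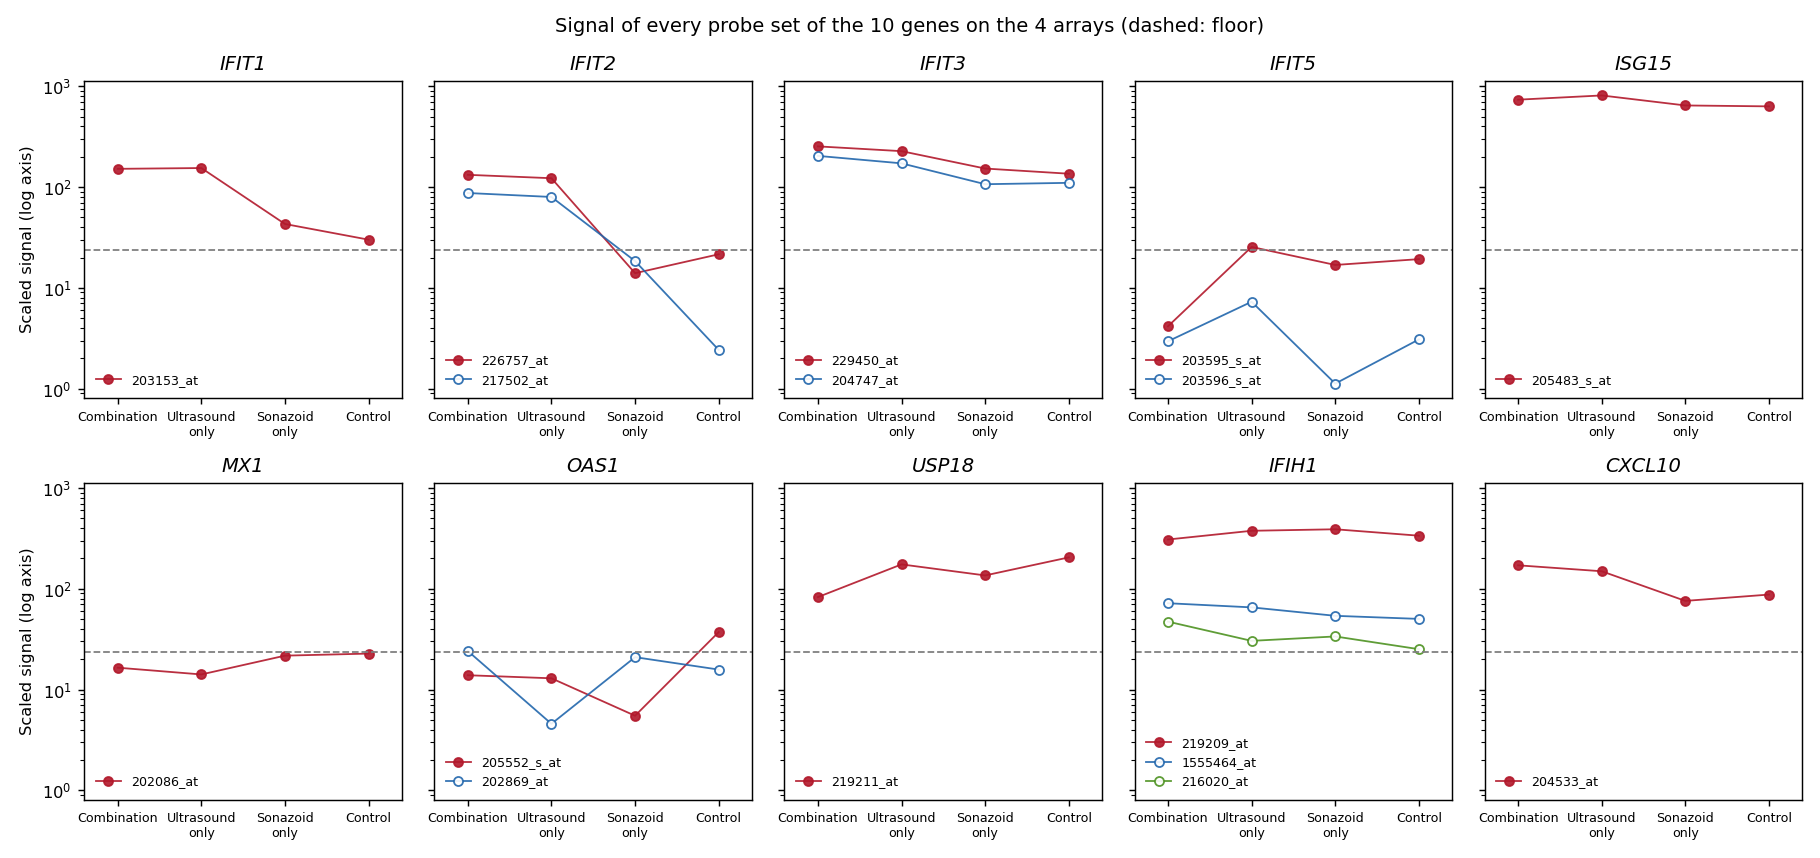
Scaled signal on a log axis for every probe set of the 10 genes on the combination, ultrasound only, Sonazoid only and control arrays. Each line is 1 probe set and the dashed line is the floor of 23.8. IFIT1, IFIT2, IFIT3 and CXCL10 are higher on both ultrasound arrays, USP18 is lowest in the combination, and IFIT5, MX1 and OAS1 lie mostly under the floor.

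CXCL10, a chemokine that attracts activated T cells, was the member outside the family nearest to the IFIT pattern. It had a signal of 171 in the combination, 149 with ultrasound only, 75.8 with Sonazoid only and 87.6 in control, so the ultrasound arrays again lay above both others. It was 1.70-fold higher with ultrasound only than in control and 2.25-fold higher in the combination than with Sonazoid only. ISG15, a ubiquitin-like protein attached to other proteins during the antiviral response, had a signal of 737 in the combination, 812 with ultrasound only, 646 with Sonazoid only and 632 in control. The ultrasound arrays were again the higher ones, but the differences were 1.28-fold (ultrasound only against control) and 1.14-fold (combination against Sonazoid only).

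USP18, the protease that removes ISG15 and damps signals of the type I interferon receptor, ran the other way. It had a signal of 82.7 in the combination, 175 with ultrasound only, 136 with Sonazoid only and 205 in control. The combination was the low array, with USP18 2.48-fold lower than in control and 2.11-fold lower than with ultrasound only. With Sonazoid only it was 1.51-fold and with ultrasound only 1.17-fold lower than in control, and USP18 had no other probe set to compare.

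IFIH1, which encodes the double-stranded RNA sensor MDA5, depended on the probe set. The brightest of its 3 read 308 in the combination, 376 with ultrasound only, 389.5 with Sonazoid only and 336 in control. The other 2 were highest in the combination, at 71.9 and 47.2 against 50.3 and 25.2 in control, 1.43-fold and 1.88-fold higher. None of the 3 reached 2-fold in any comparison, and the mean of the 3 was higher in the combination than in control (log2 0.43) where the brightest was lower (-0.13). MX1, a GTPase that traps viral particles, was under the floor on all 4 arrays (16.5 in the combination, 14.1 with ultrasound only, 21.7 with Sonazoid only and 22.8 in control). OAS1, an oligoadenylate synthetase that activates RNase L, had 1 probe set above the floor in control alone, at 37.2, and 1 in the combination alone, at 24.1. MX1 and OAS1 are among the genes interferon induces most widely, but no difference with ultrasound can be drawn from signals that low. A part of interferon was not tested.

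Counting genes by their brightest probe set, 2 of 9 measured members reached 2-fold with ultrasound only over control (IFIT1 and IFIT2), where 1.65% of all measured genes did, and 0 were 2-fold lower (0.721% of all genes). For the combination against Sonazoid only it was 3 of 7 (IFIT1, IFIT2 and CXCL10), against 1.46% of all genes, and 0 were lower (0.711%). The combination against control had 2 of 8 higher and 1, USP18, lower, where all genes gave 1.39% and 0.872%; this comparison was known when the members were chosen, and nothing is read from it. Each other comparison shares 1 of its arrays with it, so the choice fixes part of the members' values there too, and the shares of all genes serve as a scale, not as support. With Sonazoid only against control 0 of 7 members were 2-fold higher (0.652%) or lower (0.715%). For the combination against ultrasound only 0 of 8 were higher (0.7%) and 1, USP18, was lower (1.16%), but 0 with the values as deposited.

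IFIT1 and IFIT2 passed 2-fold with ultrasound only over control and in the combination over Sonazoid only, as did 0.408% of 12009 genes measured in both, with 0 of 7 members lower in both (0.0333%). These comparisons share no array with each other, but the control and combination arrays chose the members, so this is not agreement of independent comparisons. Both ultrasound arrays lay above both others for 5 of the 9 members above the floor anywhere (IFIT1, IFIT2, IFIT3, ISG15 and CXCL10), a split shown by 21.1% of all genes; the opposite split, both ultrasound arrays below, was shown by 0 of the 9 and by 19.5% of all genes.

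**Figure D3:**
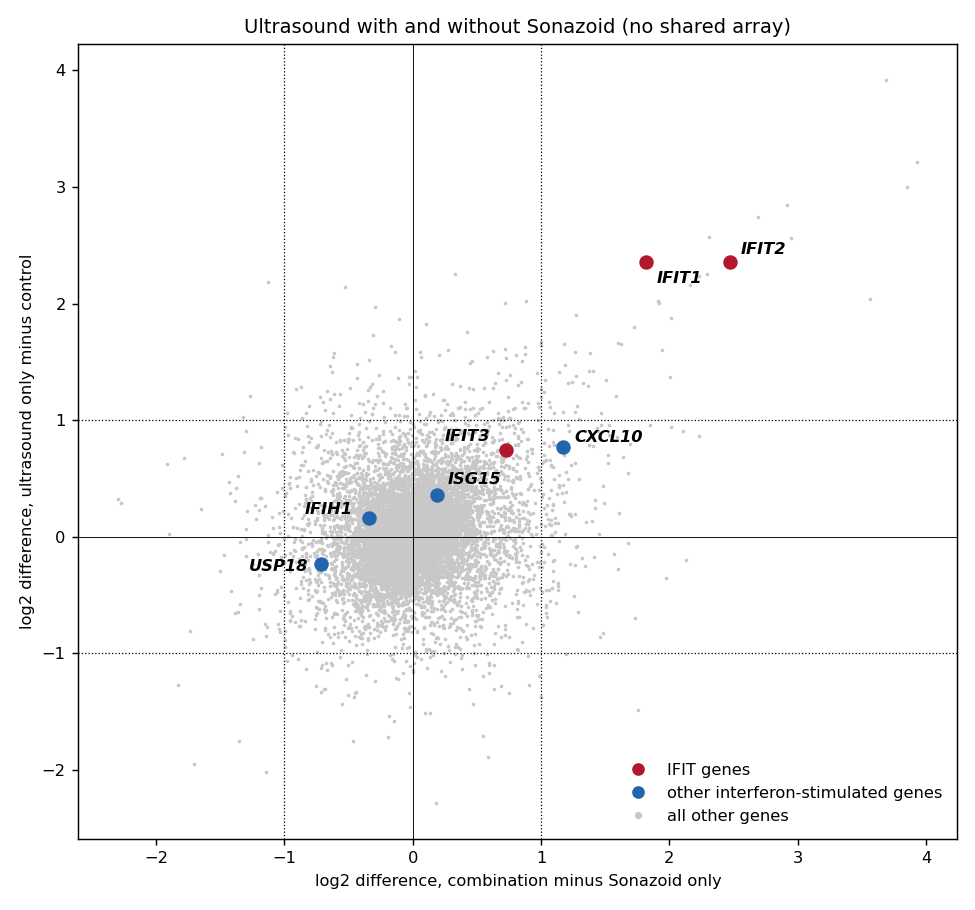
Log2 difference of ultrasound only minus control (vertical) against that of the combination minus Sonazoid only (horizontal), with IFIT genes in red, other members in blue and all other genes in grey; dotted lines mark 2-fold. IFIT1 and IFIT2 lie beyond 2-fold on both axes (for IFIT2 both values are lower bounds), IFIT3 and CXCL10 lie nearer the centre, and ISG15, IFIH1 and USP18 lie among the bulk of genes.

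The medians of the IFIT genes lay above those of the other members. With ultrasound only against control the median log2 difference was 1.55 over 4 IFIT genes and 0.16 over 5 other members, where that of all genes was 0.02. This takes in IFIT5 at its bound of 0.10, just over the floor; without IFIT5 the gap between the medians was 2.20 in place of 1.39. In the combination against Sonazoid only the median was 1.82 over 3 IFIT genes and -0.07 over 4 others, with all genes at 0.00. The combination against control, on which the members were chosen, is left aside here. Part of these values are bounds. With values below the 75th percentile of all signals set equal, the gap between IFIT genes and others was 0.15 in place of 1.39 for ultrasound only against control and 0.19 in place of 1.89 for the combination against Sonazoid only. The family was also not uniform: with ultrasound only against control IFIT3 (log2 0.74) was closer to CXCL10 (0.77) than to IFIT1 (2.36).

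The spread of genes of like signal gives a scale for these differences. Among 2921 genes with a mean signal of 50 to 200, which takes in IFIT1, IFIT2, IFIT3, CXCL10 and USP18, the central 95% of log2 differences ran from -0.76 to 1.04 for ultrasound only against control. It ran from -0.83 to 0.93 for the combination against Sonazoid only, and from -0.81 to 0.77 over 2919 genes for Sonazoid only against control. IFIT1 and IFIT2 lay above the first 2 ranges. CXCL10 was inside the first (0.77) and above the second (1.17), and IFIT3 was inside both (0.74 and 0.73). The mean signal of IFIT3, 192, was near the upper edge of this class. Both its values were above the ranges of genes at 200 to 1000, which ended at 0.58 and 0.52. In this signal class 2.81% of genes were 2-fold higher and 1.13% lower with ultrasound only against control, 2.23% and 1.4% in the combination against Sonazoid only, and 1.06% and 1.2% with Sonazoid only against control. For the combination against control the range was -0.83 to 0.95, with 2.19% of the class 2-fold higher and 1.37% lower, and nothing is read from the members' values in it. ISG15 and IFIH1, with mean signals between 200 and 1000, stayed inside the ranges of their 4199 genes, -0.49 to 0.58 for ultrasound only against control and -0.47 to 0.52 for the combination against Sonazoid only. At those signals 2-fold differences were scarcer: 0.619% higher and 0.0714% lower in the combination against control, 0.548% and 0.0714% with ultrasound only against control, 0.0% and 0.0476% with Sonazoid only against control, and 0.524% and 0.0476% in the combination against Sonazoid only.

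Most members differed little between arrays with and without Sonazoid, although the control may also differ in incubation time. With Sonazoid only against control the log2 differences were 0.52 for IFIT1, 0.17 for IFIT3, 0.03 for ISG15, 0.21 for IFIH1, -0.21 for CXCL10 and -0.59 for USP18, all inside the ranges of their signal classes, and OAS1 had a bound of -0.64. In the combination against ultrasound only they were -0.03 for IFIT1, 0.11 for IFIT2 and 0.16 for IFIT3. For ISG15, IFIH1 and CXCL10 they were -0.14, -0.29 and 0.20. All of these lay inside the central 95% of their classes, -0.86 to 0.78 at the lower and -0.53 to 0.43 at the higher signals. USP18, at -1.08, lay below that of its class. The combination array is among those on which the members were chosen, so this is a description. With the values as deposited USP18 was under 2-fold, and the differences of IFIT1 and ISG15 turned positive, at 0.19 and 0.08. The departure from additivity, the ultrasound difference with Sonazoid minus that without, was -0.54 for IFIT1, -0.01 for IFIT3, -0.17 for ISG15, -0.48 for USP18, -0.50 for IFIH1 and 0.40 for CXCL10. Each lay inside the central 95% of its class, -1.18 to 1.09 at the lower and -0.58 to 0.54 at the higher signals.

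Of 85 other listed genes of the pathway measured with ultrasound only against control and in the combination against Sonazoid only, 2 were at least 2-fold higher in both, TICAM1 and SAMHD1, and 0 were lower in both. Over all genes the shares were 0.408% and 0.0333%. TICAM1, the adaptor of the toll-like receptor TLR3 that leads to IRF3, had a signal of 94.1 in the combination, 105 with ultrasound only, 36.4 with Sonazoid only and 39.2 in control. SAMHD1, which starves viruses by degrading nucleotides, had 117 in the combination, 152 with ultrasound only, 48.5 with Sonazoid only and 50.6 in control. TICAM1 had 1 probe set, whereas 2 further probe sets of SAMHD1, each above the floor on at least 3 arrays, gave log2 differences of 1.66 and 1.18 for ultrasound only against control and of 1.70 and 1.30 for the combination against Sonazoid only, the last a lower bound.

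Sensors and adaptors of nucleic acids had a median log2 difference of 0.06 over 12 measured genes with ultrasound only against control and of -0.04 over 13 in the combination against Sonazoid only, with TICAM1 the 1 gene at 2-fold in each. Over all genes 1.65% were 2-fold higher and 0.721% lower in the first of these comparisons, and 1.46% and 0.711% in the second, which is the scale for every list here. CGAS, a sensor of DNA in the cytoplasm, was 1.89-fold and 1.97-fold higher by its brightest probe set, but another one above the floor gave log2 0.54 and -0.24. STING1, the adaptor below CGAS, was 1.40-fold and 1.03-fold lower, with log2 0.07 and -0.10 by its other probe set, and TLR7 had bounds of log2 0.59 and -0.42.

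The interferon genes themselves were hardly detected. Among 18 with a probe set, 5 were above the floor with ultrasound only or in control, with a median of -0.15, and IFNB1, chosen after its values were seen, read 1 to 3 on all arrays. IFNA17 had a signal of 47.0 in the combination, 63.4 with ultrasound only, 64.9 with Sonazoid only and 50.3 in control. IFNA4 and IFNW1 were above the floor in control alone, and IFNL2 with ultrasound only (26.0) and in control (30.0). For the combination against Sonazoid only 2 were measured, with a median of -0.13.

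The receptors, JAK kinases and STATs had medians of 0.06 and -0.01 over 9 genes in these comparisons, with 0 at 2-fold. JAK2 was 1.61-fold higher with ultrasound only than in control and level (log2 0.00) in the combination against Sonazoid only, since Sonazoid only was itself 1.64-fold above control. Another JAK2 probe set, above the floor with Sonazoid only alone, gave a bound of log2 -0.81 in the latter comparison. IFNAR1, a chain of the type I receptor, TYK2 and IFNGR1 had log2 differences of 0.20, 0.28 and -0.20 with ultrasound only and of -0.26, -0.08 and -0.06 in the combination against Sonazoid only. The probe sets of IFNAR1 disagreed, since others above the floor on all 4 arrays gave 0.97 and -0.96 with ultrasound only, and 0.02 and 0.45 in the combination against Sonazoid only. Interferon regulatory factors had medians of -0.08 and 0.01 over 7 genes. IRF9, the DNA-binding part of the type I interferon complex, had a signal of 69.1 in the combination, 91.3 with ultrasound only, 30.2 with Sonazoid only and 53.0 in control, so it was 1.72-fold and 2.29-fold higher, the 1 factor at 2-fold in the second comparison; IRF1, IRF2 and IRF7 were at 0.19, -0.19 and -0.29, and at 0.22, 0.19 and -0.06. The other probe set of IRF1, above the floor on all 4 arrays, gave log2 1.28 and 0.74.

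Feedback inhibitors had medians of 0.03 and -0.16 over 7 genes. SOCS1, which blocks JAK kinases, was at least 1.70-fold higher with ultrasound only than in control but at least 2.27-fold lower for the combination against Sonazoid only. It was the 1 inhibitor at 2-fold there. Its probe sets disagreed. In the first comparison another gave a bound of log2 -0.81, and in the second others gave -0.53 and a bound of 0.43. SOCS3 was at least 1.74-fold lower and 1.21-fold lower, and PTPN6 and PTPN11 moved by log2 0.13 and -0.05, and by -0.16 and -0.04. Other probe sets of PTPN11 disagreed, with values of -0.40 and -0.27 in one, and of 0.21 and a bound of 0.73 in another.

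Genes that IRF3 can switch on without interferon, taken beyond the members, had medians of 0.21 and 0.10 over 5 genes. PMAIP1, which encodes the death protein NOXA, was 1.43-fold and 1.79-fold higher, and its other probe set gave log2 1.40 and 1.21. RSAD2, the antiviral enzyme viperin, was 1.46-fold higher with ultrasound only than in control and lower by a bound of log2 -0.40 for the combination against Sonazoid only. The chemokine CCL5 (log2 0.21 and 0.12) and the RNA-binding ZC3HAV1 (0.07 and 0.10) were near level. The remaining gene, OASL, named after its values were seen, was at -0.03 and -0.73.

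The wider set of type I interferon-stimulated genes had a median of 0.04 over 35 measured genes with ultrasound only against control, with 1 at least 2-fold higher and 0 lower (1.65% and 0.721% of all genes), and of -0.14 over 35 in the combination against Sonazoid only, with 1 and 0 (1.46% and 0.711%). SAMHD1 was that 1 gene in both comparisons. SAMD9L was 1.80-fold and 1.21-fold higher, whereas TRIM5 was 1.68-fold and 1.40-fold lower and the nuclear body protein SP100 1.57-fold and 1.22-fold lower. Other SP100 probe sets disagreed in the combination against Sonazoid only. They gave log2 0.05 and a bound of 0.76, against -0.25 and a bound of -0.33. Genes induced by interferon gamma had medians of -0.06 over 15 and 0.01 over 11. CXCL11, a chemokine that shares its receptor with CXCL10, had a signal of 66.5 in the combination, 56.7 with ultrasound only, 10.6 with Sonazoid only and 41.8 in control, 1.35-fold higher and at least 2.79-fold higher (the 1 gene of this list at 2-fold), but another probe set gave log2 -0.11 in the combination against Sonazoid only. GBP2, a guanylate-binding protein, was at least 1.5-fold higher with ultrasound only than in control, while IDO1 was 1.35-fold lower and CIITA at least 1.45-fold lower, and none of these 3 was above the floor in the combination or with Sonazoid only.

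**Figure D4:**
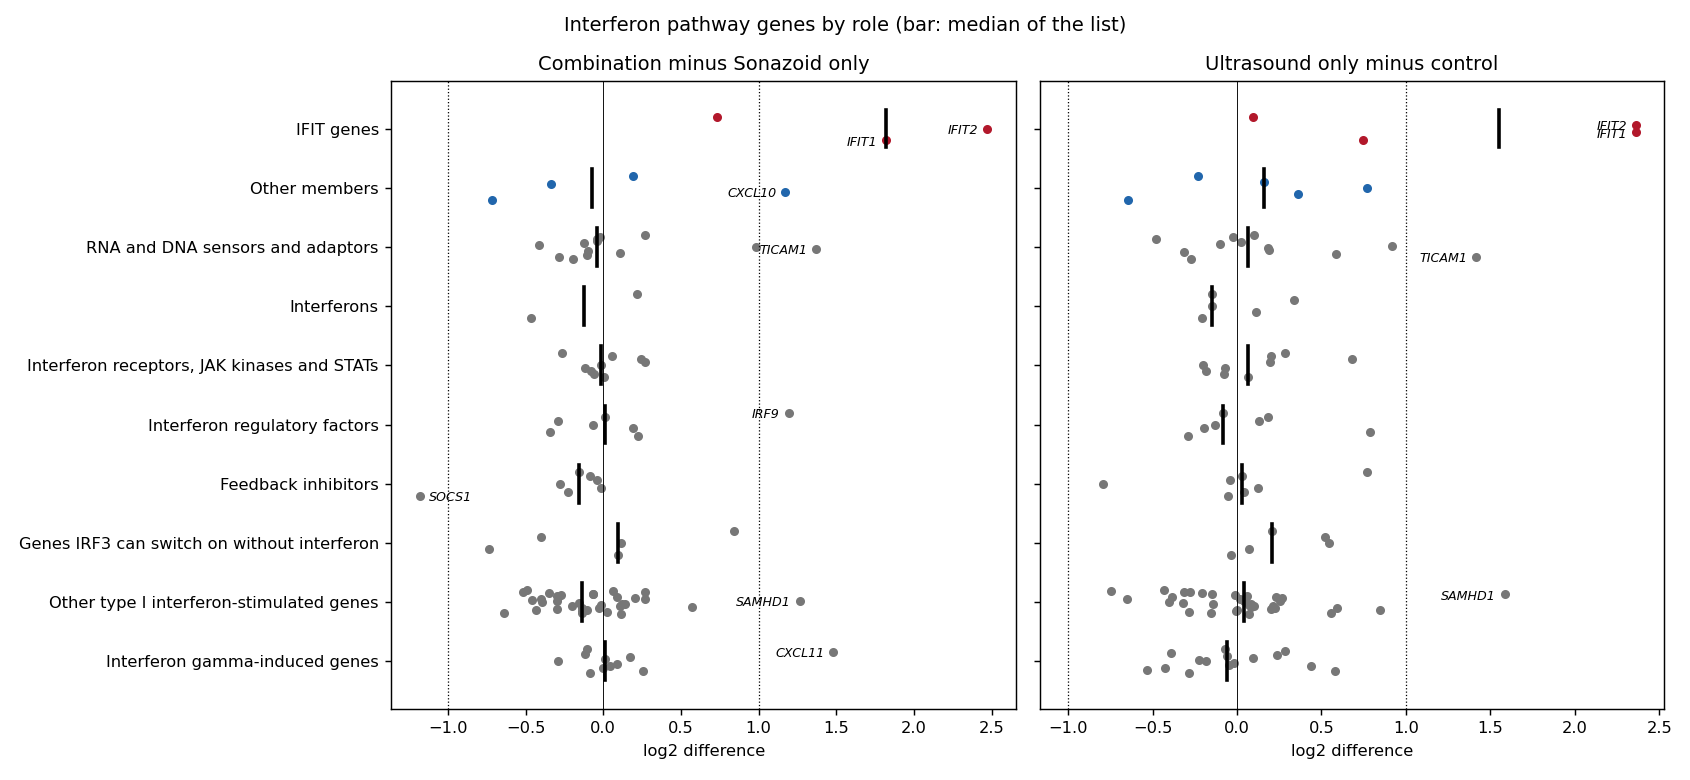
Log2 differences of interferon pathway genes by role, for the combination minus Sonazoid only (left) and ultrasound only minus control (right). Each point is 1 gene by its brightest probe set, black bars are list medians, dotted lines mark 2-fold, and values with 1 side at the floor are bounds; every list median outside the IFIT genes lies between -0.16 and 0.21, while IFIT1 and IFIT2 lie at 1.82 or more.

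For the combination against control the medians of the same lists were -0.01 for sensors over 12 genes, -0.15 for interferons over 5, 0.04 for receptors over 9, -0.05 for regulatory factors over 7, 0.06 for feedback inhibitors over 6, -0.03 for IRF3 genes over 5, -0.03 for other type I genes over 34 and -0.18 for interferon gamma genes over 13. At 2-fold these lists held TICAM1 and SAMHD1 on the higher side and IDO1 (at least 2.11-fold) on the lower side, where 1.39% of all genes were higher and 0.872% lower.

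The IFIT genes lie next to each other on chromosome 10, and their measured neighbours were all under 2-fold in both comparisons. Of the 4 protein-coding genes on either side, chosen by position alone, ACTA2, FAS, LIPA, PANK1 and KIF20B were above the floor. Their log2 differences were -0.10, 0.39, -0.27, 0.07 and -0.22 with ultrasound only against control, and 0.46, 0.12, -0.07, 0.11 and 0.12 in the combination against Sonazoid only. CH25H, a cholesterol hydroxylase that interferon also induces, and HTR7 were under the floor on all 4 arrays.

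The genes whose profile was most like the mean of IFIT1, IFIT2 and IFIT3 came from outside the interferon pathway. Likeness was the Euclidean distance between log2 values centred on their mean over the 4 arrays, among 12356 other genes above the floor on at least 2 arrays. The nearest were DDIT4, an inhibitor of mTORC1 (distance 0.20), the membrane protein EMP1 (0.23), the phospholipid-binding annexin ANXA1 (0.25), the transcription factor KLF4 (0.28) and the heme oxygenase HMOX1 (0.30). The distances of IFIT1, IFIT2 and IFIT3 themselves were 0.40, 0.69 and 1.01, and that of CXCL10 was 0.84, of ISG15 1.49, of IFIH1 1.85 and of USP18 2.44. With 4 arrays such likeness mainly separates ultrasound from no ultrasound: DDIT4 had a signal of 1666 in the combination, 1700 with ultrasound only, 550 with Sonazoid only and 538 in control.

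**Figure D5:**
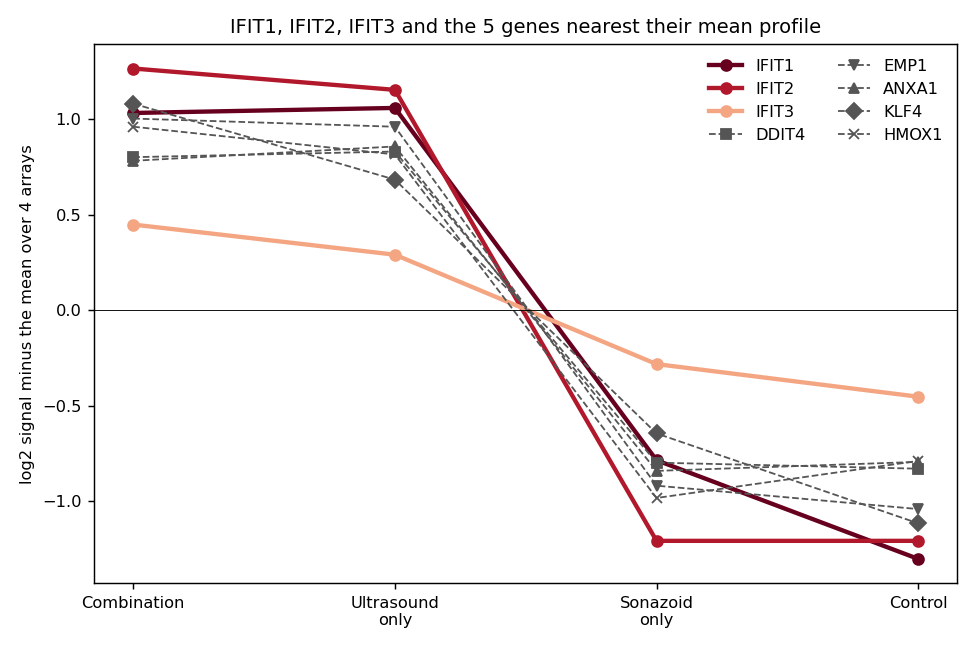
Log2 signal minus its mean over the 4 arrays for IFIT1, IFIT2 and IFIT3 (red lines) and the 5 genes nearest to their mean profile (grey dashed lines), on the combination, ultrasound only, Sonazoid only and control arrays. All 8 lie above 0 on both ultrasound arrays and below 0 on both others, and IFIT3 has the flattest line.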

How the data were processed

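RNA of U937 cells was measured on 4 Affymetrix Human Genome U133 Plus 2.0 arrays, 1 per group, after one-cycle amplification from the 3′ end, per the labels' protocols. The deposited values are linear intensities between 0.0486 and 21728. The summarisation method, scaling and detection calls of the authors were not given in the sources used here. Precision is limited by the number of arrays.

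Means trimmed by 2% at either end differed 1.16-fold between arrays, above a 1.1-fold limit, so arrays were scaled by 0.923 (combination), 1.07 (ultrasound only), 0.977 (Sonazoid only) and 1.04 (control). Signals below their overall median were raised to it and log2 was taken. Of 54675 probe sets 41097 had 1 symbol, 1801 several and 11777 none in the platform annotation; symbols were updated through Entrez identifiers for 41043 by the RefSeq table of GRCh38.p14. A gene was represented by its brightest probe set, and a gene above the floor on at least 1 of 2 arrays counted as measured. The call was a 2-fold difference (log2 of 1), with no test.

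The members and lists were chosen with earlier results of these data known. Named were all members, up to 4 genes per pathway list farthest from 0 with ultrasound only against control, and the 5 nearest profiles. The pathway lists were sensors, interferons, receptors with JAK kinases and STATs, regulatory factors, feedback inhibitors, IRF3 genes, other type I genes and interferon gamma genes, and the markers were myeloid, plasmacytoid dendritic, T and NK, B cell and fibroblast; genes of a list without a probe set of their own in the table are not analysed here. The steps were tested on simulated data. Alternatives changed the scaling, floor, pseudocount (32), probe set choice and threshold (1.5-fold). Python 3.11.15, numpy 2.4.6, pandas 2.3.3 and matplotlib 3.10.9 were used.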

Additional observations from a re-analysis of the deposited data

Results flagged for a closer look

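IFIH1 was singled out because its brightest probe set differed in opposite directions under ultrasound with and without Sonazoid. Its log2 difference was -0.34 in the combination against Sonazoid only and 0.16 with ultrasound only against control, a departure of -0.50. The difference was not tested, since each group is 1 array, and the other 2 probe sets were higher with ultrasound in both cases (0.42 and 0.49 in the combination against Sonazoid only, 0.38 and 0.27 with ultrasound only against control).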

How the results depend on the processing

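No paired analysis was possible because each group has 1 array and the labels give no replicate numbers. Given here are log2 values that moved by more than 0.19, the robust spread of genes between the arrays without ultrasound, and counts that moved by over 1.5 times. The cause was not tested except where fewer genes stay above a floor. The members were chosen on the combination against control, so nothing is read from their values in it under any setting. The IFIT median minus that of the other members was 2.46 for the combination against control, and became 1.91 with the floor at the 25th percentile, 0.35 at the 75th, 1.95 with the mean of all probe sets and 1.68 with a pseudocount. For the combination against Sonazoid only (1.89) it became 1.35, 0.19, 1.63 and 1.36 in the same order. For ultrasound only against control (1.39) it became 1.59, 0.15, 1.1 and 0.93, and 2.20 with gene-specific probe sets and 2.14 with the values as deposited, settings under which IFIT5 had no value; leaving IFIT5 out, chosen after seeing the data, also gave 2.20. For Sonazoid only against control (0.55) it became 0.13 with the lower and -0.011 with the higher floor and 0.36 with the pseudocount, and for the combination against ultrasound only (0.26) 0.062 with the lower floor and 0.028 with the mean of probe sets. With the higher floor 0 members were 2-fold higher or lower in any comparison. At 1.5-fold, 4 members were higher and 2 lower in the combination against control, 4 higher and 1 lower with ultrasound only against control, 1 lower in the combination against Sonazoid only and 2 lower with Sonazoid only against control. Of all genes 5.87% were higher and 4.67% lower at 1.5-fold in the combination against control, 6.75% and 4.03% with ultrasound only against control, 4.36% lower in the combination against Sonazoid only and 4.29% lower with Sonazoid only against control. With the lower floor 3 were lower in the combination against control, 2 in the combination against ultrasound only, and 1 in each other comparison. Without scaling 4 members were higher in the combination against control, where the median of all genes then stood 0.17 higher; it stood 0.21 higher in the combination against ultrasound only. In the combination against ultrasound only 0 were lower as deposited or with the pseudocount. Shares of all genes were computed with the main floor and scaling alone. Nothing is therefore read from counts of members under another floor or scaling or with the pseudocount. List medians moved for feedback inhibitors (-0.18, mean of probe sets) and regulatory factors (0.16, as deposited) in the combination against control, for IRF3 genes in the combination against Sonazoid only (-0.15, gene-specific), and for interferons (-0.54 with the pseudocount in the combination against control, 0.42 with the lower floor and 0.22 with gene-specific probe sets in the combination against Sonazoid only). Another 237 summary values and 208 differences of single members moved by less and 41 single differences by more. Values under 2-fold changed sign for IFIH1 with the mean of its probe sets (0.43 in the combination against control, 0.19 against Sonazoid only, 0.16 against ultrasound only) and as deposited (0.05 in the combination against control). They also did for IFIT1 (0.19 as deposited, 0.0019 with quantile normalisation) and ISG15 (0.08 as deposited) in the combination against ultrasound only, and for OAS1 with its gene-specific probe set (0.02 in the combination against control). With 1 array per group, low signals limit what can be seen for IFIT5, MX1, OAS1 and the interferons.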
